A study of Mus musculus with 6 samples.

Results

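Dual-specificity phosphatases of the MAP kinase pathway remove phosphate from the activated MAP kinases, and 9 genes of this family, Dusp1, Dusp3, Dusp4, Dusp5, Dusp6, Dusp7, Dusp10, Dusp14 and Dusp16, are described here in mouse jejunal epithelium with and without Hdac1 and Hdac2. They were taken by gene symbol from a table of 19616 genes, in which 21 genes carry a Dusp symbol followed by a number. The 9 genes were selected on this same comparison, with their RNA levels in control and Hdac1/2-deleted mice already known, so their differences are given as a description and without a test. RNA was sequenced from intestinal epithelial cells (IEC) that had been enriched from the jejunum with EDTA. The 3 control mice (C1, C3 and C3-3) were wildtype. The 3 Hdac1/2-deleted mice (H1, H5 and H9) carried the genotype villin-Cre Hdac1-/-; Hdac2-/-. Mice of both groups were 3 months old and of a mixed C57BL/6J, 129SV and CD1 background, each giving 1 library, and villin-Cre, expressed in the intestinal epithelium, removes the floxed parts of Hdac1 and Hdac2, the genes of a pair of class I histone deacetylases.

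A MAP kinase is switched on when a kinase above it phosphorylates a threonine and a tyrosine of its activation loop, and a dual-specificity phosphatase switches it off by removing both phosphates. The classical members also hold a kinase-binding domain that helps decide which kinase they act on. Dusp1, Dusp4 and Dusp5 encode nuclear enzymes whose genes are induced by mitogens, Dusp6 and Dusp7 encode cytoplasmic enzymes selective for ERK, and Dusp10 and Dusp16 encode enzymes that act mainly on JNK and p38. Dusp3 and Dusp14 encode small, atypical enzymes without the kinase-binding domain. Because ERK signalling itself induces several of these genes, they are widely read as negative feedback on the pathway.

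All of them share the catalytic loop, in which a cysteine takes up the phosphate and an arginine holds it. The coding bases of that loop, from the histidine codon to the arginine codon, were read from the longest coding transcript of each gene in GENCODE M21 (mouse build GRCm38). They are shown as a stretch that all 9 genes hold. The loop was found by its pattern, a histidine and a cysteine followed at a set distance by an arginine. That pattern is a signature of cysteine phosphatases in general. The bases are written 5′ to 3′ with the cysteine and arginine codons in capitals.
Dusp1: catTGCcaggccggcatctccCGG
Dusp4: cacTGCcaggccggcatctccCGA
Dusp5: cacTGCgaagctggggtttccCGG
Dusp6: catTGCttggcaggtatcagcCGC
Dusp7: cacTGCctagcaggcatcagcCGT
Dusp10: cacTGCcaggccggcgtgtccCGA
Dusp16: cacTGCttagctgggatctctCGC
Dusp3: catTGCcgcgagggctacagcCGC
Dusp14: cacTGTgcggcaggcgtgagcCGC

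Of the 24 bases, 9 were the same in all 9 genes, some of them set by the pattern used to find the loop. Over the 36 pairs of genes the number of identical bases ran from 11 to 22, with a median of 16. Dusp4 had 22 identical bases with Dusp1 and 22 with Dusp10, the most of any pair. Dusp3 and Dusp4, the pair whose RNA differed most between the groups, shared 14 of the 24. The whole coding sequences ran from 198 codons in Dusp14 and 210 codons in Dusp3 to 660 codons in Dusp16.

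Before the values, the animals were compared. Libraries held between 36111035 (H5) and 65902344 (C1) counts, so 3 counts, taken as the floor of detection, came to between 0.0405 and 0.079 CPM (counts scaled to the library's total with TMM factors). Hdac1 was at 40.8 ± 7.33 CPM (SD, n = 3) in control and 3.77 ± 1.16 CPM (SD, n = 3) in deleted IEC, with no overlap. Hdac2 was at 27.7 ± 4.72 and 24.5 ± 2.70 CPM (SD, n = 3 each) with overlapping ranges. Reads from outside the removed part can count towards the gene, and so would RNA of an allele that was not deleted. Counts per gene cannot tell these apart, so the count of Hdac2 does not check the deletion. The epithelial genes Epcam and Vil1 stood at 949 CPM or more in every mouse, while Ptprc (leukocytes) lay between 6.24 and 21.1 CPM, Col1a1 (fibroblasts) between 0.395 and 2.23 CPM and Pecam1 (endothelium) between 1.12 and 2.62 CPM. Other cells were not equally present. Summed over 4 smooth muscle genes (Acta2, Myh11, Des and Tagln), the level was 59.9 CPM in C1, 44.7 CPM in C3 and 2.30 CPM in C3-3, against 0.284 to 0.358 CPM in the deleted mice, where Myh11 was at 0 in H5 and H9. Summed over 16 leukocyte genes it ran from 142 to 511 CPM in control and from 85.5 to 173 CPM in deleted mice. All 11 fibroblast and smooth muscle genes summed to 7.02 to 74.5 CPM in control and 12.9 to 22.0 CPM in deleted mice, with C3-3 the lowest mouse. Of 9 tested fibroblast and smooth muscle genes, 5 were called decreased (the 4 smooth muscle genes and Dcn) and 1 (Pdgfrb) increased. The 6 endothelial genes summed to 5.97 to 8.29 CPM in control and 10 to 11.4 CPM in deleted mice, with no overlap, and none of the 4 tested was called. Of the 15 leukocyte genes tested, 2 (Cd4 and Csf1r) were called increased and 2 (Cd3g and Cd8a) decreased, around a median log2 fold change of -1.07. DESeq2 called 2 increased and 5 decreased. Summed over 7 T cell genes (Cd3d, Cd3e, Cd3g, Cd8a, Gzma, Gzmb and Itgae), the level was 123.2, 476.5 and 407.2 CPM in C1, C3 and C3-3. In H1, H5 and H9 it was 59.2, 148.3 and 116.9 CPM. Cd4 was left out of this sum and went the other way, from 0.649 ± 0.0930 to 2.00 ± 0.962 CPM (SD, n = 3 each). In stained sections of jejunum, a different material from enriched IEC, the paper reported more CD3-positive T cells in mutant mice. The 10 epithelial genes summed to 19360 to 21880 CPM in control and 15030 to 17470 CPM in deleted mice, with no overlap. For 5 of the 10 every deleted mouse lay below every control, and for 1 above. Ranges did not overlap for 53.2% of all tested genes. Epcam was at 1664 ± 166 CPM in control and 1081 ± 124 CPM in deleted mice (SD, n = 3 each). Of the 10 genes, 8 were not called. C3 held 3082 counts of 4 Y-linked genes against 1 to 13 in each of the other mice, and the labels give no sex. The part of these differences in the values below was not tested, and in bulk RNA fewer cells of a type and less RNA per cell cannot be told apart.

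In control IEC, 3 of the 9 genes carried most of the RNA. Levels between genes were compared as CPM per kilobase of exon, which takes the length of each gene into account. Dusp6 was highest at 16.4 (range over 3 mice 14.7 to 17.7), followed by Dusp5 at 15.3 (10.8 to 20.7) and Dusp16 at 10.4 (7.88 to 15.0). The ranges of these 3 neighbours overlapped. A gap separated them from Dusp1 at 2.41 (1.94 to 3.26). Below it came Dusp14 at 1.32, Dusp4 at 0.930, Dusp3 at 0.706, Dusp10 at 0.613 and Dusp7 at 0.424, and each of these overlapped with the next.

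The order was different in Hdac1/2-deleted IEC. Dusp4, sixth in control, was first at 21.8 CPM per kilobase (range 19.9 to 24.3), and Dusp3, seventh in control, was second at 18.5 (16.8 to 20.2). Dusp6 at 17.2 (13.5 to 20.8) and Dusp5 at 15.3 (14.2 to 16.01) came next, and the first 4 genes overlapped each with its neighbour. Dusp16 at 7.13, Dusp14 at 2.02, Dusp1 at 1.77, Dusp7 at 0.677 and Dusp10 at 0.252 followed. Of these, Dusp14 and Dusp1 overlapped, while Dusp5 and Dusp16, Dusp16 and Dusp14, Dusp1 and Dusp7, and Dusp7 and Dusp10 did not. The plot of levels per length shows Dusp3 and Dusp4 joining the abundant genes.

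**Figure D1:**
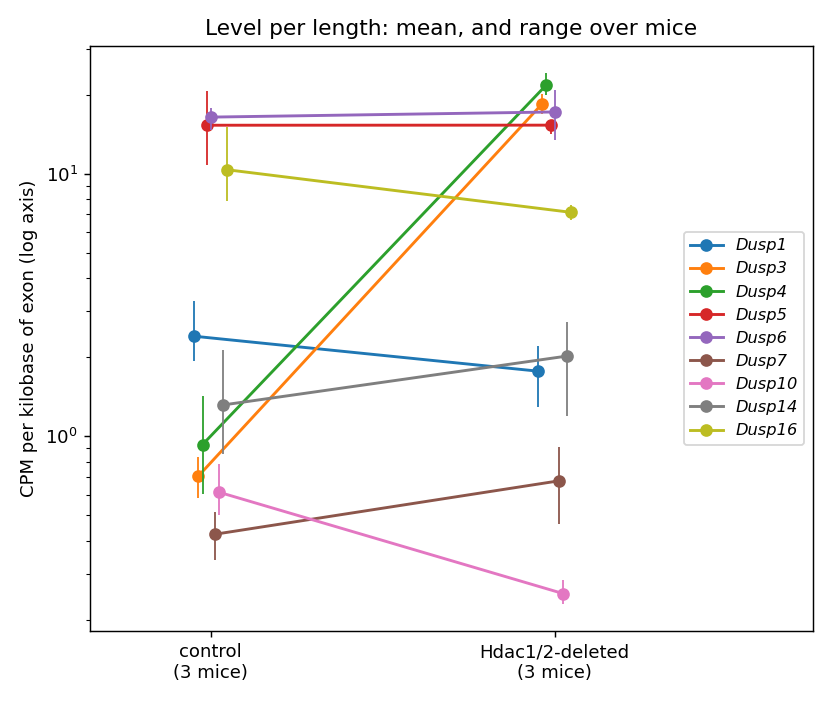
Level of each of the 9 genes as CPM per kilobase of exon (log axis) in control and Hdac1/2-deleted IEC. Points are means of 3 mice and vertical lines the range over mice. Dusp4 goes from 0.930 to 21.8 and Dusp3 from 0.706 to 18.5, while Dusp10 goes from 0.613 to 0.252.

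Summed over the 9 genes, the level per kilobase was 41.5 in C1, 58.1 in C3 and 46.0 in C3-3, and 86.9 in H1, 88.8 in H5 and 78.4 in H9. The sums did not overlap, and their means were 48.5 ± 8.58 and 84.7 ± 5.53 (SD, n = 3 each). Dusp3 made up 1.5% ± 0.440 of the sum in control and 21.9% ± 2.21 in deleted mice (SD, n = 3 each). For Dusp4 the share was 1.96% ± 0.987 in control and 25.8% ± 2.07 in deleted mice. Dusp6, at nearly the same level in both groups, went from 34.9% to 20.2% of the sum, Dusp5 from 31.0% to 18.1% and Dusp16 from 20.9% to 8.47%. The bars of the summed level show that the added height in deleted mice is made of Dusp3 and Dusp4.

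**Figure D2:**
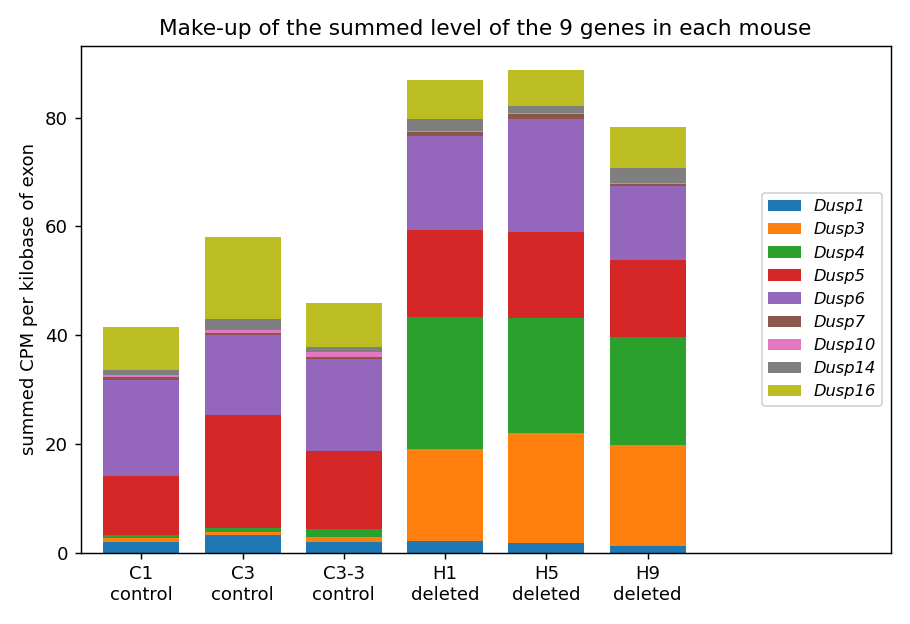
Summed level of the 9 genes (CPM per kilobase of exon) in each of the 6 mice, divided by gene. Control bars reach 41.5 to 58.1 and Hdac1/2-deleted bars 78.4 to 88.8, and Dusp3 and Dusp4 together are a thin band in control and the widest part of each deleted bar.

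Over the 9 genes, 2 (Dusp3 and Dusp4) passed the limits for a called increase, which ask for a difference of 2-fold or more and an adjusted p no higher than 0.05, and 1 (Dusp10) passed those for a called decrease. Among all 15618 genes tested, 25.2% were called, 12.4% as increased and 12.7% as decreased, and since the 9 genes were selected on this comparison nothing is read from their count. The CPM ranges of the groups did not overlap for 4 of the 9 genes, as was the case for 53.2% of all tested genes. The median log2 fold change of the 9 was 0.06 and that of all tested genes -0.01. Their median absolute log2 fold change was 0.624, beside 0.594 for all tested genes.

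**Figure D3:**
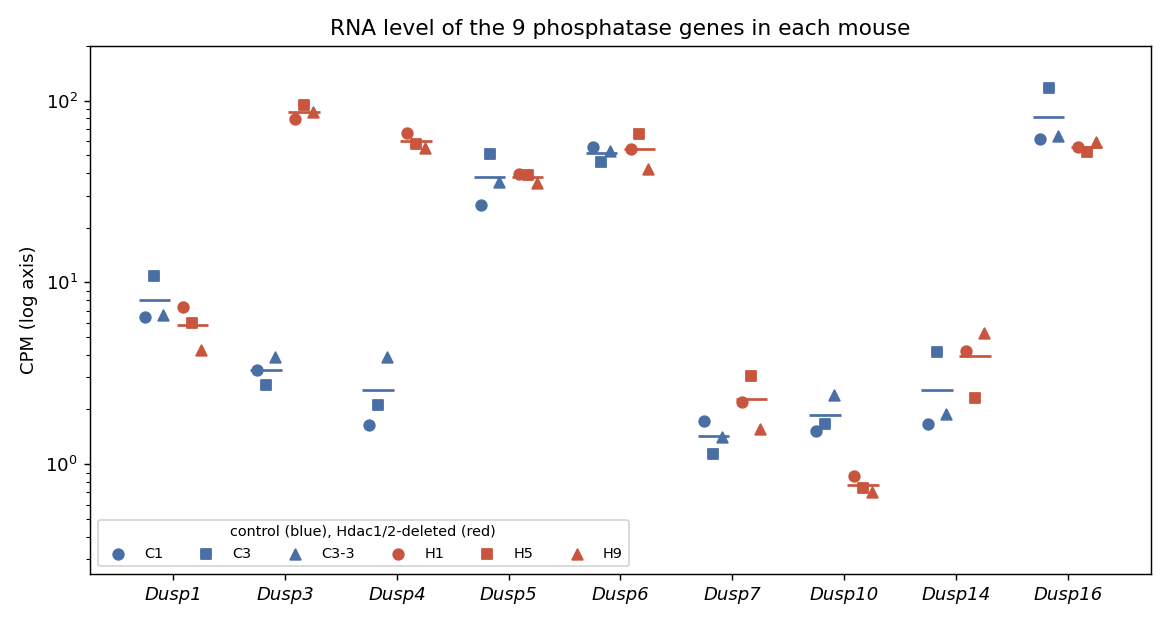
CPM of the 9 genes (log axis) in each mouse, controls in blue and Hdac1/2-deleted mice in red, with 1 symbol per mouse and lines at the group means. For Dusp3 and Dusp4 all deleted mice lie above 50 CPM and all controls below 4 CPM, and for Dusp10 all deleted mice lie below all controls.

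Dusp3 (ENSMUSG00000003518; GRCm38 chr11:101971143-101987013, minus strand) encodes the atypical phosphatase VHR, which acts on ERK and JNK. It was at 3.31 CPM in C1, 2.72 in C3 and 3.90 in C3-3, and at 78.8 CPM in H1, 94.6 in H5 and 86.3 in H9. The groups were far apart, and the lowest deleted mouse stood far above the highest control. The means were 3.31 ± 0.588 and 86.6 ± 7.90 CPM (SD, n = 3 each), 26.2-fold higher in deleted IEC (log2 fold change 4.71, SE 0.19). Of the 15618 genes tested, 233 (1.49%) had a larger increase. The values rest on 151 to 219 counts per control library and 3592 to 5836 per deleted library. In the annotation, 604 of the 4682 exon bases of Dusp3 are shared with Gm20659, an antisense gene, and whether the counting used strand is not stated.

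Dusp4 (ENSMUSG00000031530; chr8:34807297-34819894, plus strand) encodes an inducible nuclear phosphatase of ERK, JNK and p38. It was at 1.65 CPM in C1, 2.11 in C3 and 3.90 in C3-3, and at 66.6 CPM in H1, 58.1 in H5 and 54.6 in H9. Control mice varied more in proportion than deleted mice, with a coefficient of variation of 46.6% against 10.3%, and C3-3 was the highest control. The means were 2.55 ± 1.19 and 59.8 ± 6.18 CPM (SD, n = 3 each), 23.5-fold higher in deleted IEC (log2 fold change 4.56, SE 0.32). Without C3-3 the log2 fold change was 5.0. A larger increase was found for 254 genes (1.63% of those tested).

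The genes of the other nuclear enzymes showed no such gap between the groups. Dusp5 (chr19:53529109-53542431, plus strand), which encodes a nuclear phosphatase of ERK, was at 26.6, 51.2 and 35.8 CPM in C1, C3 and C3-3 and at 39.6, 38.9 and 35.1 CPM in H1, H5 and H9. The deleted mice lay within the range of the controls, and the mean was 37.9 CPM in both groups, with an SD of 12.4 in control and 2.4 in deleted mice (n = 3 each). The fitted log2 fold change was 0.00 (SE 0.22), and leaving out 1 mouse at a time moved it between -0.19 and 0.28, so it has no set direction. Of its exons, 547 bases are shared with an antisense gene, AC137853.2. Dusp1 (chr17:26505590-26562128, minus strand) encodes the founding member of the family, which is induced by stress and mitogens and prefers p38 and JNK. It was at 6.43, 10.8 and 6.66 CPM in C1, C3 and C3-3, and at 7.34, 5.98 and 4.28 CPM in H1, H5 and H9. The ranges overlapped, with C3 highest, and the log2 fold change was -0.44 (SE 0.29).

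Of the cytoplasmic phosphatases of ERK, Dusp6 (chr10:99263231-99267489, plus strand) is the one most often used as a readout of ERK activity. Its level was 55.6, 46.2 and 52.8 CPM in C1, C3 and C3-3, and 54.1, 65.2 and 42.3 CPM in H1, H5 and H9. Deleted mice lay on both sides of the controls. The means were 51.5 ± 4.82 and 53.9 ± 11.5 CPM (SD, n = 3 each), with a log2 fold change of 0.06 (SE 0.17) that ran from -0.09 to 0.25 over the alternative settings. Dusp7 (chr9:106368632-106375724, plus strand), its close relative, was scarce, at 1.72, 1.13 and 1.41 CPM in C1, C3 and C3-3 and 2.20, 3.05 and 1.56 CPM in H1, H5 and H9. The ranges overlapped through C1 and H9, and the log2 fold change was 0.67 (SE 0.34).

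The pair acting on JNK and p38 was lower on average in deleted IEC. Dusp10 (ENSMUSG00000039384; chr1:184013302-184075636, plus strand) was at 1.52, 1.67 and 2.39 CPM in C1, C3 and C3-3, and at 0.864, 0.737 and 0.699 CPM in H1, H5 and H9. Every deleted mouse was below every control. The means were 1.86 ± 0.462 and 0.767 ± 0.0863 CPM (SD, n = 3 each), 2.42-fold lower in deleted IEC (log2 fold change -1.27, SE 0.33). The counts were few, 93 to 127 per control library and 28 to 64 per deleted library. Without C3-3, the highest control, the log2 fold change was -1.05 and Dusp10 was no longer called. C3-3 was also the control with the least smooth muscle RNA. Dusp16 (chr6:134715468-134792625, minus strand) was at 61.4, 117 and 63.9 CPM in C1, C3 and C3-3, and at 55.7, 51.9 and 59.2 CPM in H1, H5 and H9. Here too the groups did not overlap, but only by a narrow gap between C1 and H9, and the mean of the controls was raised by C3. The log2 fold change was -0.54 (SE 0.24), which did not pass the limits for a call, and it was -0.17 without C3.

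Dusp14 (chr11:84048041-84069261, minus strand), the other atypical gene, varied most within groups. It was at 1.66, 4.14 and 1.88 CPM in C1, C3 and C3-3, and at 4.18, 2.32 and 5.30 CPM in H1, H5 and H9. C3 stood with the higher deleted mice and H5 with the lower controls. The coefficient of variation was 53.6% in control and 38.3% in deleted mice, and the log2 fold change was 0.62 (SE 0.43). Both atypical genes lie on chromosome 11, and the fitted difference between the groups was 26.2-fold for Dusp3 and 1.54-fold for Dusp14. Among the controls, C3 was the highest for Dusp1, Dusp5, Dusp14 and Dusp16 and the lowest for Dusp3, Dusp6 and Dusp7.

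The classical MAP kinase phosphatase genes not described above, Dusp2, Dusp8 and Dusp9, were tested with edgeR's quasi-likelihood test, adjusted over all genes. These genes and the pathway lists below were also chosen with earlier results of these data known. The adjustment does not cover that choice, so their p-values and calls are given as a description. Dusp9, on the X chromosome and encoding an ERK phosphatase of the same subgroup as Dusp6 and Dusp7, was at 0.649, 0.234 and 1.28 CPM in C1, C3 and C3-3, and at 34.9, 30.0 and 43.3 CPM in H1, H5 and H9. It was 50.2-fold higher in deleted IEC (log2 fold change 5.65, SE 0.54, adjusted p = 2.57e-04), an increase that 148 genes exceeded. Without C3-3, its highest control, the log2 fold change was 6.33. Dusp8, which acts on JNK and p38 as Dusp10 and Dusp16 do, was at 10.9 ± 1.80 CPM in control and 25.7 ± 3.54 CPM in deleted IEC (SD, n = 3 each; log2 fold change 1.23, SE 0.19, adjusted p = 9.25e-04). Within its subgroup, Dusp9 stands beside log2 fold changes of 0.06 for Dusp6 and 0.67 for Dusp7, and Dusp8 stands beside -1.27 for Dusp10 and -0.54 for Dusp16. Dusp2, a nuclear enzyme best known from immune cells, was near the floor with 3 to 25 counts per library (log2 fold change -0.25, adjusted p = 0.764).

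Of 12 tested atypical family genes other than Dusp3 and Dusp14, none was called increased and 2 decreased, and the middle log2 fold change was 0.03. In edgeR, 2 were higher and 3 lower at an unadjusted p under 0.05, and DESeq2 called no increase and 2 decreases. Dusp23 fell from 9.44 ± 1.23 to 1.61 ± 0.264 CPM (SD, n = 3 each; log2 fold change -2.56, adjusted p = 9.18e-05). Epm2a, which encodes laforin, a phosphatase of glycogen, fell from 0.619 ± 0.0188 to 0.0939 ± 0.0239 CPM (SD, n = 3 each; log2 fold change -2.66, adjusted p = 1.35e-03), on 3 to 9 counts per deleted library.

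**Figure D4:**
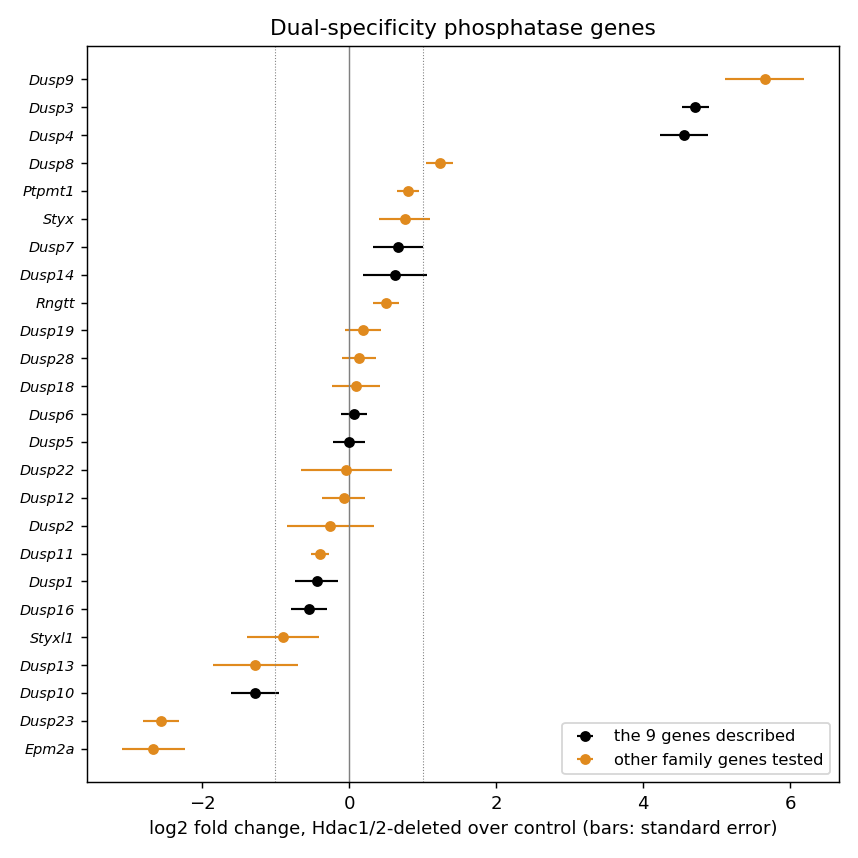
Fitted log2 fold change (Hdac1/2-deleted over control, bars are standard errors) of the 9 genes described (black) and of the other tested dual-specificity phosphatase genes (orange), with dotted lines at a 2-fold difference. Dusp9 at 5.65, Dusp3 at 4.71 and Dusp4 at 4.56 stand apart at the top, and Dusp10 at -1.27, Dusp23 at -2.56 and Epm2a at -2.66 are at the bottom.

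Other phosphatases that act on MAP kinases showed 3 called decreases and no called increase among 9 tested genes, and none was higher at an unadjusted p under 0.05 in edgeR or called increased by DESeq2. Ptprr, a receptor-type tyrosine phosphatase that binds ERK, went from 57.0 ± 23.7 to 14.4 ± 2.45 CPM (SD, n = 3 each; log2 fold change -1.99, adjusted p = 2.23e-03). Its relative Ptpn5 had a log2 fold change of -2.65 (adjusted p = 7.37e-03), with C1 at 0.710 CPM, well below C3 at 3.78 and C3-3 at 3.31 CPM. Ppm1a, a serine/threonine phosphatase of p38 and JNK kinases, went from 182 ± 13.8 to 79.6 ± 14.3 CPM (SD, n = 3 each; log2 fold change -1.19, adjusted p = 5.95e-04).

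Of the kinases that these phosphatases act on, Mapk3 (ERK1), Mapk8 (JNK1), Mapk9 (JNK2) and Mapk14 (p38 alpha) were not called. Mapk3 had a log2 fold change of -0.02 (adjusted p = 0.932). For Mapk8 it was 0.05 (adjusted p = 0.900) and for Mapk14 0.38 (adjusted p = 0.0673). Mapk9 was at 36.7 ± 1.99 CPM in control and 53.4 ± 3.54 CPM in deleted IEC (SD, n = 3 each), an increase with an adjusted p of 8.50e-03 that is under 2-fold. In the ERK cascade as a whole, 2 of 23 tested genes were called increased and none decreased, around a median log2 difference of -0.02. At an unadjusted p under 0.05 in edgeR 7 were higher and 4 lower, and DESeq2 called 2 increased and 0 decreased. The called increases were Rps6ka3, which encodes the ERK-activated kinase RSK2 (31.9 ± 2.26 to 73.3 ± 3.86 CPM, SD, n = 3 each, log2 fold change 1.2, adjusted p = 1.49e-04), and Rps6ka6 (log2 fold change 1.48, adjusted p = 0.0445). The call of Rps6ka6 was lost without C3, C3-3, H1 or H5 (adjusted p from 0.103 to 0.155), and without C1 its log2 fold change was 2.09. In the JNK, p38 and ERK5 cascades, 1 of 34 tested genes was called increased and 2 decreased, around a median log2 difference of 0.17. At an unadjusted p under 0.05 in edgeR 9 were higher and 5 lower, and DESeq2 called 2 increased and 3 decreased. Increases under 2-fold were seen for Map2k3 (log2 fold change 0.95, adjusted p = 6.10e-04), Mapk7 (ERK5; 0.97, adjusted p = 9.81e-04) and Mapk13 (p38 delta; 0.85, adjusted p = 4.71e-03). Decreases under 2-fold were seen for Mapkapk3 (-0.92, adjusted p = 0.016) and Mapkapk5 (-0.61, adjusted p = 0.0266). The ERK cascade also held differences under 2-fold. Examples are Map2k1 (0.78, adjusted p = 1.79e-03) and Hras (0.74, adjusted p = 4.96e-03) upwards and Ksr1 (-0.70, adjusted p = 8.48e-03) downwards. Map3k12, a kinase at the top of the JNK cascade, rose from 1.43 ± 0.283 to 6.64 ± 1.11 CPM (SD, n = 3 each; adjusted p = 3.33e-04), and Map2k5, the kinase of ERK5, fell from 14.0 ± 1.01 to 4.55 ± 0.841 CPM (SD, n = 3 each; adjusted p = 3.89e-04). Rps6ka5 (MSK1) had a log2 fold change of -1.17 (adjusted p = 8.63e-03), which was -0.93 and under the 2-fold limit without H5.

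Upstream, 2 of 10 tested genes of EGF family ligands and ERBB receptors were called increased and 2 decreased. Ereg, the ligand epiregulin, rose from 0.616 ± 0.0204 to 4.52 ± 1.32 CPM (SD, n = 3 each; log2 fold change 2.87, adjusted p = 2.13e-04), and Areg, the ligand amphiregulin, from 5.31 ± 1.13 to 14.4 ± 5.86 CPM (SD, n = 3 each; log2 fold change 1.44, adjusted p = 5.79e-03). Nrg4, a ligand of ERBB4, fell from 9.13 ± 2.04 to 0.166 ± 0.0306 CPM (SD, n = 3 each; log2 fold change -5.73, adjusted p = 7.02e-06). Erbb3, the receptor that signals through its partners, fell from 1068 ± 213 to 322 ± 60.1 CPM (SD, n = 3 each; log2 fold change -1.73, adjusted p = 2.94e-04). For Egfr the log2 fold change was 0.26 (adjusted p = 0.192).

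Feedback and output genes of ERK other than the phosphatases showed 4 called increases and 1 called decrease among 20 tested, around a median log2 difference of 0.30. Spry4, a feedback inhibitor of receptor signalling, rose from 0.742 ± 0.670 to 13.9 ± 0.555 CPM (SD, n = 3 each; log2 fold change 4.23, adjusted p = 1.13e-03). As for Dusp4, its highest control was C3-3, at 1.51 CPM, and without it the log2 fold change was 5.25. Etv4 and Etv5, a pair of ETS transcription factors, had log2 fold changes of 3.74 (adjusted p = 1.22e-04) and 2.10 (adjusted p = 1.07e-03). Rasal1, a GTPase-activating protein for RAS, rose from 0.166 ± 0.0405 to 21 ± 2.31 CPM (SD, n = 3 each; log2 fold change 6.96, adjusted p = 1.91e-06). Il17rd, the feedback inhibitor Sef, fell from 12.9 ± 1.52 to 4.61 ± 0.930 CPM (SD, n = 3 each; log2 fold change -1.49, adjusted p = 8.96e-04).

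Among 25 tested genes, made up of immediate early genes, the first to respond to these kinases, and of transcription factors that the kinases phosphorylate, 4 were called increased and 2 decreased. Egr1 rose from 9.22 ± 0.0778 to 27.5 ± 7.39 CPM (SD, n = 3 each; log2 fold change 1.58, adjusted p = 5.70e-04). Nr4a1 and Elk1, the latter a gene of such a factor, had log2 fold changes of 1.53 (adjusted p = 4.62e-03) and 1.21 (adjusted p = 5.74e-03). Fosl1 had 2.00 (adjusted p = 0.0423), on 4 to 88 counts per library, and its call was lost without C1, C3, H1, H5 or H9 (adjusted p from 0.0527 to 0.154), while without C3-3 its log2 fold change was 3.09. Jun fell from 102 ± 45.1 to 34.8 ± 1.49 CPM (SD, n = 3 each; log2 fold change -1.55, adjusted p = 2.98e-03) and Btg2, an antiproliferative gene, from 118 ± 59.5 to 18.6 ± 1.73 CPM (SD, n = 3 each; log2 fold change -2.67, adjusted p = 6.23e-04). C3 was the highest control for Jun and C1 for Btg2, the mice with the most smooth muscle RNA. C3-3, the control with the least of it, was at 67.4 CPM for Jun and 77.8 CPM for Btg2, above every deleted mouse. The part of smooth muscle RNA in these values was not tested. Fos had a log2 fold change of -0.29 (adjusted p = 0.243). Over all 8 lists of pathway genes, 15 of 137 tested genes were called increased and 12 decreased, and 110 were not called. Among all tested genes, 12.4% were called increased and 12.7% decreased. The lists were chosen with earlier results of these data known, so nothing is read from their counts. The CPM ranges of the pathway genes did not overlap for 43 that were higher and 25 that were lower in deleted IEC, beside the 53.2% of all tested genes given above. The plot by role shows 6 of these lists.

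**Figure D5:**
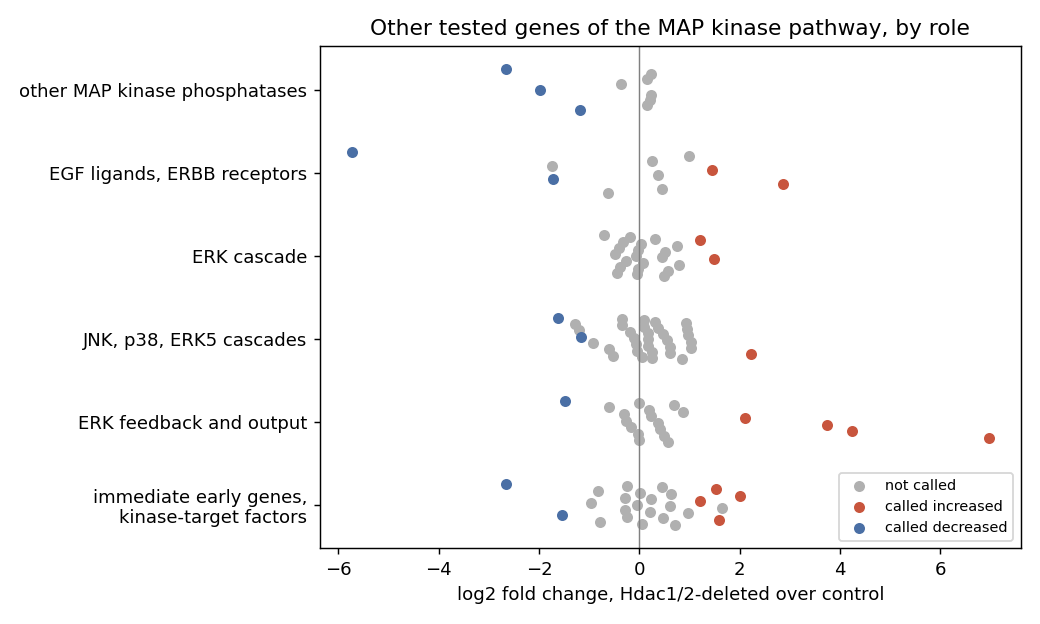
Log2 fold change (Hdac1/2-deleted over control) of the other tested genes of the MAP kinase pathway, 1 point per gene, in 6 rows by role. Called increases are red, called decreases blue and the rest grey. The ERK feedback row reaches 6.96 (Rasal1), the ligand and receptor row reaches -5.73 (Nrg4), and the ERK cascade has no called decrease.

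The promoters of the 9 genes were looked up in RefSeq (GRCm38.p6), from 250 bases before to 50 after the start, and 8 of the 9 had an entry, the exception being Dusp4. All 8 were rich in G and C, from 57.3% in Dusp6 to 78.7% in Dusp7, where the median was 52.7% over all 32851 promoters of this length. They held 19 to 41 CpG dinucleotides, and the median over all promoters was 7. The sequences of Dusp3 and Dusp10 are shown as those of a gene with much higher and a gene with lower RNA in deleted IEC. They are written 5′ to 3′ on the strand of the gene, with capitals marking the GC box (GGGCGG) and the CCAAT box (CCAAT) on either strand. The window of Dusp3 is chr11:101984742-101985041 on the minus strand, and that of Dusp10 is chr1:184034131-184034430 on the plus strand. A single RefSeq start was used for each gene. For Dusp1, Dusp3, Dusp10 and Dusp14 the whole window lies inside the gene span given above, which begins further upstream.
Dusp3: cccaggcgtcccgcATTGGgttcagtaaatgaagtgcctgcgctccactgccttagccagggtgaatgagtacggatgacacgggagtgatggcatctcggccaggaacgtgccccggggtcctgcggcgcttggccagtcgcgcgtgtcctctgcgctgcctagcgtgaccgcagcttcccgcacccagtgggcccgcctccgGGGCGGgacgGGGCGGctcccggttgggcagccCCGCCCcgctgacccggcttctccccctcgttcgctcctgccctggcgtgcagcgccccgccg
Dusp10: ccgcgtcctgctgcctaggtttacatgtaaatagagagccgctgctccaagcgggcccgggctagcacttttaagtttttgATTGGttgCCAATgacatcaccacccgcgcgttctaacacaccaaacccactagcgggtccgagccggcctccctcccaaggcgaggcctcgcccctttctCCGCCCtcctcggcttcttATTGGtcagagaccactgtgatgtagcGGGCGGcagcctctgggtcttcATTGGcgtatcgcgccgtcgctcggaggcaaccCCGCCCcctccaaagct

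The window of Dusp3 held 3 GC boxes and 1 CCAAT box, and that of Dusp10 held 3 GC boxes and 4 CCAAT boxes. Over all promoters, 35.7% held a GC box and 37.4% a CCAAT box. Both were also searched on both strands for the TATA box (TATAAA, in 13.6% of all promoters), the cAMP response element (TGACGTCA, 1.79%) and its overlapping core (TGACG, 20.8%), the AP-1 site (TGANTCA, 7.81%), the STAT site (TTCNNNGAA, 8.30%), the ETS core (CCGGAA, 14.9%) and the CArG box (1.63%), and these letters did not occur in either window. Of the other members, Dusp1 held 1 cAMP response element, Dusp5 held 2 CArG boxes, which are bound by serum response factor, and Dusp16 held 5 GC boxes. Dusp14 held 1 STAT site and 1 ETS core, and no other member window held either. Dusp8, outside the 9, held 2 cAMP response elements. These matches describe the letters of the windows only.

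The genes with the most similar profiles were found by the root mean square difference, over the 6 mice, of log2(CPM + 0.5) centred on the control mean, which brings scarce genes closer together, among the 11277 tested genes whose mean log2 CPM was 1 or more. For Dusp3 they were Renbp (0.14), Usp11 (0.193) and Dmwd (0.193). For Dusp4 they were Renbp (0.248), Cfhr2 (0.299) and Dusp3 itself (0.303). Renbp was at 0.710 ± 0.189 CPM in control and 25.0 ± 3.75 CPM in deleted IEC (SD, n = 3 each). For Dusp10 they were Ghrl (0.0647), Dtnbp1 (0.0705) and Cep135 (0.0909), of which Ghrl, the ghrelin gene, was at 18.9 ± 2.61 and 9.93 ± 1.06 CPM (SD, n = 3 each).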

How the data were processed

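RNA-seq of poly(A) RNA was made with IEC of the jejunum from 3 mice per group, using a directional library kit. The authors aligned reads with STAR (version 2.4.0f1 per the submitters' processing notes) and deposited raw counts per gene for 19616 genes, none with fewer than 10 counts over the 6 samples. The counting tool and its strand setting are not given in the sources used here. The notes name build mm9 and the methods GRCm38, and gene positions here come from GENCODE M21 (GRCm38), which held 19526 of the genes by identifier. The deposited table also holds scaled values per sample and the authors' comparison columns (log fold change, mean log CPM and p-values), which were not used.

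Counts were fitted with edgeR 4.0.16 (R 4.3.3; filterByExpr, TMM, robust quasi-likelihood test, prior count 0.125), with Benjamini-Hochberg adjustment over the 15618 genes tested, and calls needed a 2-fold difference and an adjusted p no higher than 0.05. DESeq2 1.42.0 was an alternative. The 9 genes and the lists were chosen with earlier results of these data known. Named genes are the 9, every called pathway list gene, main kinases, Egfr, Fos, Egr1, Dusp2, Dusp8, Dusp9, the targeted genes, defining markers (1 gene of this rule is not reported here) and the 3 closest profiles of members with at least a 2-fold difference. Some cascade genes with differences under 2-fold are named as examples outside this rule. Marker lists are described by sums. Replicates are separate mice. Floors cover counting error only.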

Additional observations from a re-analysis of the deposited data

How the results depend on the processing

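The 9 genes kept the same calls under library totals only, relative log expression size factors, DESeq2, no filter on low counts, at least 10 counts in every sample and a prior count of 2. Since the 9 genes were selected on this comparison, calls that stay the same are a description and no support for their differences. Leaving out 1 mouse at a time moved the log2 fold change of Dusp4 between 4.32 and 5.0 and that of Dusp10 between -1.39 and -1.05, and only without C3-3 was Dusp10 not called. Library totals in place of TMM shifted the median log2 fold change of all tested genes by 0.189, gave 2463 genes called increased and 1538 decreased in place of 1944 and 1990, and gave 23 pathway genes called increased in place of 15. It also took Ppm1a (log2 fold change -0.998) and Rps6ka5 (-0.96) under the 2-fold limit. Without the 2-fold limit, 3198 genes were increased and 3168 decreased, and for pathway genes 28 and 20 in place of 15 and 12. For the other named pathway genes, 403 refits gave the same call and 12 lost it, those of Ppm1a, Rps6ka5, Rps6ka6 and Fosl1, and Mapk3, Mapk8 and Dusp2, not called, changed sign in some. No paired analysis was made because the labels record no pairing of mice between the groups. With 1 mouse left out, the log2 fold change of Dusp1 lay between -0.64 and -0.15, that of Dusp7 between 0.41 and 0.88 and that of Dusp14 between 0.36 and 1.16. With 3 mice per group the SE of the 9 genes ran from 0.17 to 0.43, which limits the differences that can be told.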
